A study of Mus musculus with 14 samples.

Results

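The inflammasome genes and their interleukin 1 family products are 10 genes here: the sensors Nlrp3 and Aim2, the adaptor Pycard, the proteases Casp1 and Casp4, the pore former Gsdmd, the cytokines Il1a, Il1b and Il18, and the receptor antagonist Il1rn. They were chosen by name, and their probes were found by the RefSeq accession listed with each probe. The 10 genes carry 14 probes, and they stand among 22911 genes with a symbol on the array. All 10 were tested, among 30567 genes or unnamed probes that passed a filter on dim signal (17287 with a symbol).

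Whole-lung RNA of male C57BL/6N mice was measured on 14 one-colour Agilent arrays, 1 month after an intratracheal instillation. Controls received PBS, the vehicle (5 arrays), and the other groups 200 µg per mouse of a carbon fibre as it was before recycling (VCF, 3 arrays), after carbonization (CCF, 3 arrays) or after firing (RCF, 3 arrays). The age of the mice and the fibres' dimensions are not given in the sources used here, and the arrays of a group are independent biological samples per the series' design text. The 3 comparisons with control share the same 5 control arrays.

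An inflammasome is a protein platform in the cytosol of macrophages, neutrophils and epithelial cells. A sensor such as NLRP3 detects damage (particles and fibres that rupture lysosomes among its known triggers), binds the adaptor ASC, and so activates caspase-1, which cuts the precursors of interleukin 1β and interleukin 18 and opens gasdermin D pores. The precursor of interleukin 1β must first be made from newly transcribed Il1b RNA, a step usually driven by NF-kB, whereas cleavage and release act on protein and are not seen in RNA. In the lung this pathway is best known from asbestos, silica and other inhaled particles.

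Levels are log2 of the processed signal minus the 75th percentile of the array, so that 0 is that percentile and 1 unit a doubling. A difference is that of group means with limma's standard error (±, n = 3 fibre and n = 5 control arrays, or n = 3 against 3 between fibres). An adjusted p is limma's moderated two-sided test after Benjamini-Hochberg adjustment over all genes of the comparison, with a threshold of 0.05. Probes differ in how brightly they bind, so levels of different genes are not set against each other.

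The 14 arrays came from 3 slides. Replicates 1 and 2 of control, VCF and CCF shared slide 1 with RCF 1, and replicate 3 of the same 3 groups made up slide 2. Slide 3, scanned on another day, carried the remaining arrays (control 4 and 5, RCF 2 and 3). Array brightness, taken as the 75th percentile of intensity, ran from 891 to 2953 in 11 arrays, and was 277, 323 and 375 in VCF 1, CCF 2 and RCF 1. The 12 lung epithelium and endothelium markers were well above background on all 14 arrays.

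In all 7 comparisons 0 of the 10 genes passed the threshold. The share of all genes that passed was 0.0851% for VCF against control, 5.99% for CCF, 0.154% for RCF and 2.58% for the mean of the 3 fibres. It was 0.222% for CCF against VCF, 0.00982% for RCF against VCF and 0.00327% for RCF against CCF. With limma at an unadjusted p under 0.05 the members numbered 2 for VCF (9.96% of all genes), 3 for CCF (23.7%), 1 for RCF (12.9%) and 3 for the mean of the fibres (19.5%). Between fibres they numbered 2 for CCF against VCF (13.8%), 1 for RCF against VCF (9.05%) and 0 for RCF against CCF (9.26%). Members whose arrays did not overlap between the groups numbered 1 for VCF (7.38% of all genes), 1 for CCF (16.3%), 1 for RCF (11.4%) and 0 for the mean of the fibres (1.65%). Between fibres they numbered 5 for CCF against VCF (19%), 1 for RCF against VCF (15.5%) and 3 for RCF against CCF (16%). Il1a, which passed the filter only through CCF and RCF arrays, is among the 5. The median difference of the 10 genes from control was −0.11 for VCF, −0.25 for CCF and −0.07 for RCF, beside −0.00, −0.00 and 0.06 over all genes tested. Il1b had the widest distance between fibres among the 10 (5.12-fold between VCF and CCF). Pycard came closest to the threshold against control, with all 9 fibre arrays below the control mean.

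**Figure D1:**
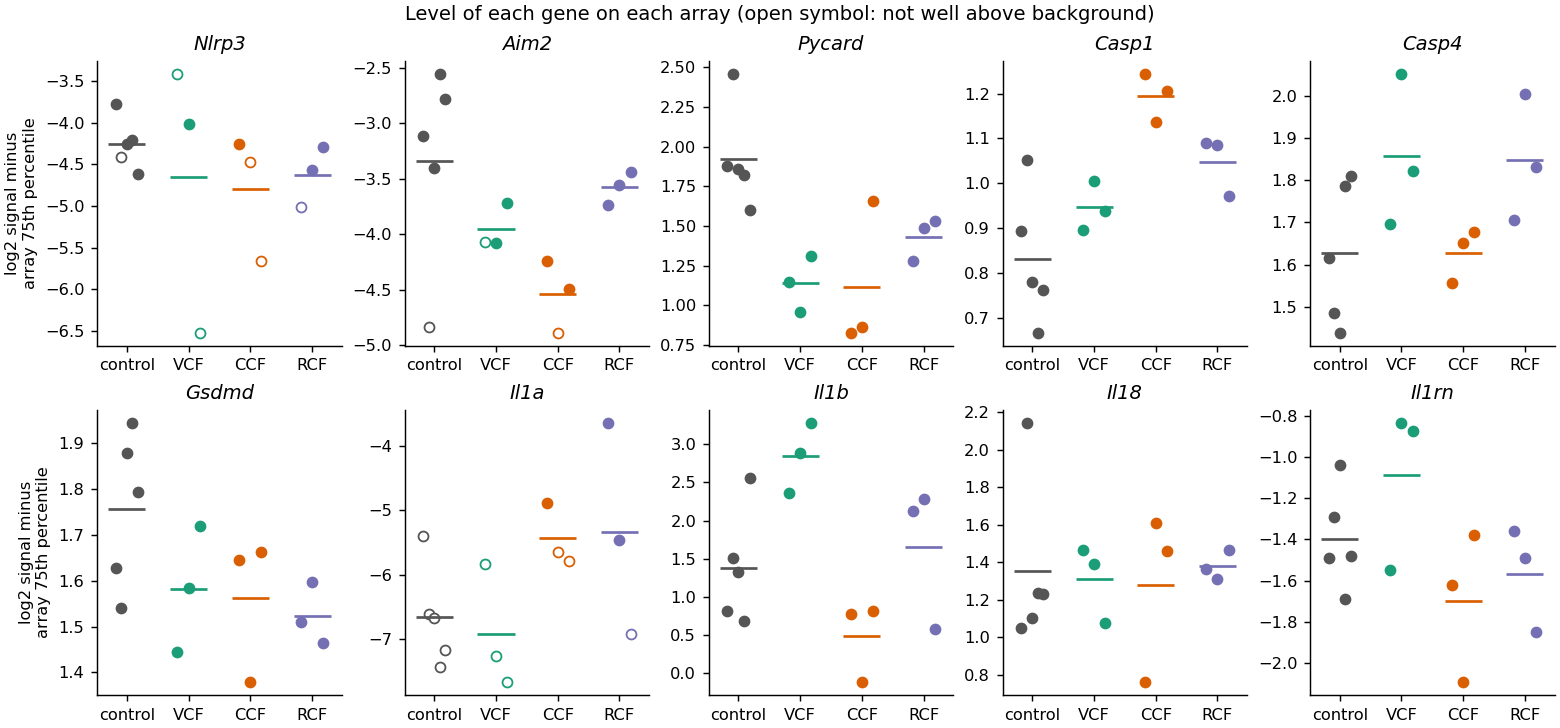
Level of each of the 10 genes on each array, as log2 signal minus the 75th percentile of the array, with control (n = 5), VCF, CCF and RCF (n = 3 each) side by side. Points are arrays, open where the probe was not well above background, and lines are group means. The 3 VCF arrays of Il1b lie between 2.36 and 3.28 and the 3 CCF arrays between −0.12 and 0.81, while the Casp1 panel spans only 0.58 from its lowest to its highest array.

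The start sites of Il1b and Il1rn are shown because this pair had the highest positive correlation across arrays among the 10 genes. Each window runs from 250 bases before to 50 bases after a RefSeq start (GRCm38.p6), 5′ to 3′ in the direction of the gene, with matches to the searched motifs in capitals. The Il1b window lies at chr2:129371090-129371389 on the minus strand, and its capitals mark a TATAAA box 31 bases before the start. Il1rn has 3 windows on the plus strand. The one at chr2:24345041-24345340 overlaps the next, holds no match and is not printed, and the windows shown lie at chr2:24336610-24336909 and chr2:24345121-24345420. Capitals in the upper one mark an AP-1 match (TGANTCA) 141 bases before the start, and in the lower one a TATAAA match on the other strand 15 bases after it.
Il1b: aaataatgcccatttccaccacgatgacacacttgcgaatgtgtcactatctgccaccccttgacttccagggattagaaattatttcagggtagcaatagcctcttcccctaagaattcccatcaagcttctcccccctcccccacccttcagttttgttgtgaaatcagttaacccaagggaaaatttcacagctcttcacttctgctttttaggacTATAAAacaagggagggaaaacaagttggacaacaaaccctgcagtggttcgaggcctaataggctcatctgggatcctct
Il1rn, upstream start: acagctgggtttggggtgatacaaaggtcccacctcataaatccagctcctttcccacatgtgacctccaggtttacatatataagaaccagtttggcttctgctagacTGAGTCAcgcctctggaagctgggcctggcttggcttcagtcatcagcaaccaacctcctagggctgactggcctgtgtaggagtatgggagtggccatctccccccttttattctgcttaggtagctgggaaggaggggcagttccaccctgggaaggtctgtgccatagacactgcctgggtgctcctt
Il1rn, downstream start: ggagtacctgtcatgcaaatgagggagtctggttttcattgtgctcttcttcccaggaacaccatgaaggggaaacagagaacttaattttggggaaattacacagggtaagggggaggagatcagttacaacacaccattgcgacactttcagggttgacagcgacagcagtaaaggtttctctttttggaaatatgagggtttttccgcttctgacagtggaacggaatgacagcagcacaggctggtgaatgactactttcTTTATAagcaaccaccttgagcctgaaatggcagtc

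Motifs were searched on both strands. TATAAA was found in 13.6% of all 32851 mouse windows of this length, TGANTCA in 7.81%, the NF-kB consensus in 8.46%, the PU.1 core GAGGAA in 28.3%, the C/EBP motif TTGCNNAA in 10.8% and an interferon response motif in 3.44%. Of the 10 genes, 9 had a window in the table (13 windows). NF-kB matches stood in 1 window of Nlrp3, 186 bases before the start, and in Casp4, where 3 matches lie 93, 92 and 39 bases before one start and the first pair overlap. Il1a had TATAAA 32 bases, GAGGAA 41 bases and TGANTCA 12 bases before its start. GAGGAA was also found in windows of Nlrp3, Aim2, Pycard and Casp1. A match describes these letters only, and the absence of one says nothing about a factor's binding elsewhere.

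Nlrp3 encodes the sensor best known from crystalline and fibrous particles. Control 1 to 5 read −3.77, −4.41, −4.26, −4.21 and −4.62. VCF read −3.41, −4.02 and −6.53, CCF −4.25, −4.47 and −5.66, and RCF −5.02, −4.57 and −4.30. The groups overlap, and the probe was well above background on 8 of the 14 arrays only (4 of 5 control, 1 VCF, 1 CCF and 2 RCF arrays). The differences from control were −0.40 ± 0.58 for VCF, −0.54 ± 0.58 for CCF and −0.37 ± 0.58 for RCF, with adjusted p of 0.916, 0.636 and 0.868. The 95% intervals reach from −1.66 to 0.87 for VCF, from −1.81 to 0.72 for CCF and from −1.64 to 0.89 for RCF. VCF 3 and CCF 3, the lowest values, were both not well above background, and without VCF 3 the VCF difference was 0.54.

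Aim2 encodes the sensor of DNA in the cytosol. Its brighter probe read −3.12, −4.84, −3.40, −2.56 and −2.78 in control 1 to 5. VCF read −4.07, −4.08 and −3.72, CCF −4.24, −4.89 and −4.49, and RCF −3.74, −3.56 and −3.44. Apart from control 2, which was not well above background, every control array was above every VCF, CCF and RCF array. The CCF difference was −1.20 ± 0.41 (adjusted p = 0.101, range over the alternatives 0.00617 to 0.388), and without control 2 it was −1.58 with an adjusted p of 0.00617. The other Aim2 probe did not share this direction: its CCF difference was 0.55 ± 0.39 (adjusted p = 0.433), and the probes correlated at r = −0.508 across the 14 arrays. VCF 1 and CCF 2 were not well above background on both probes, nor was control 2 on the brighter probe or control 1 on the other.

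Pycard encodes ASC, the adaptor that joins sensor and caspase. Control 1 to 5 read 1.88, 2.46, 1.86, 1.82 and 1.6. VCF read 1.15, 0.96 and 1.31, CCF 0.83, 0.87 and 1.66, and RCF 1.28, 1.49 and 1.53. Every VCF and RCF array lay below every control array, and CCF 3 alone of the fibre arrays reached into the control range.

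The Pycard differences were −0.79 ± 0.22 for VCF (unadjusted p = 0.0044, adjusted p = 0.236) and −0.81 ± 0.22 for CCF (adjusted p = 0.0555). RCF differed by −0.49 ± 0.22 (adjusted p = 0.383), and the mean of the 3 fibres by −0.69 ± 0.17, a factor of 1.62 (adjusted p = 0.0537). The mean of the fibres missed the threshold here and passed it with slide as a fixed (0.0413) or random block (0.0260), among probes above background on all arrays (0.0266), on the authors' deposited values (0.0401) and without CCF 3 (−0.79, 0.0346), with adjusted p between 0.0260 and 0.210 over all alternatives. These 5 were the only ones of 26 alternatives to pass. Within slides the sizes were unequal. On slide 1 the differences were −1.12 for VCF, −1.32 for CCF and −0.89 for RCF, on slide 2 −0.55 for VCF and −0.20 for CCF, and on slide 3 −0.20 for RCF. Control 2, on slide 1, held the highest Pycard level of all arrays. Of all arrays left out in turn, it gave the smallest difference for the mean of the fibres, −0.56. In a lung homogenate, fewer cells that carry a transcript and less of it per cell cannot be told apart, for Pycard as for the genes that follow. The summed level of 14 alveolar macrophage markers ran from 7.13 to 8.17 in control, 7.33 to 8.12 in VCF, 7.52 to 7.62 in CCF and 7.46 to 7.54 in RCF. That of 14 monocyte and interstitial macrophage markers ran from 6.82 to 7.05, 7.06 to 7.20, 6.94 to 7.31 and 6.83 to 7.01. By single genes, 11 of these 14 were lower than control with VCF and 3 higher (median difference −0.25), unlike the sum. With CCF 11 were higher and 3 lower (0.18), with RCF 8 and 6 (0.03). Of the alveolar macrophage markers 8 were higher and 6 lower with VCF (0.01). For this list CCF gave 12 and 2 (0.27), RCF 13 and 1 (0.27). Other lists were mostly lower. Of 10 B cell and plasma cell markers 9 were lower and 1 higher with VCF (−0.58). CCF gave 8 and 2 (−0.34), RCF 9 and 1 (−0.52). Of 12 lung epithelium and endothelium markers 7 were lower and 5 higher with VCF (−0.05). For this list CCF gave 9 and 3 (−0.35), RCF 10 and 2 (−0.23). All markers of both macrophage lists were above background on all arrays. The part of any of these markers in the Pycard values was not tested.

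Casp1 encodes the protease that cuts the interleukin 1β and 18 precursors. It read 0.89, 1.05, 0.78, 0.67 and 0.76 in control 1 to 5. VCF read 0.90, 1.01 and 0.94, CCF 1.24, 1.14 and 1.21, and RCF 1.09, 1.08 and 0.97. The 3 CCF arrays lay above all control, VCF and RCF arrays. The CCF difference was small but tightly measured, 0.36 ± 0.11 or 1.29-fold, with an adjusted p of 0.0697 that missed the threshold (0.0304 to 0.312 over the alternatives, and 0.0304 without control 2, at 0.42). VCF and RCF differed from control by 0.12 ± 0.11 (adjusted p = 0.83) and 0.22 ± 0.11 (adjusted p = 0.439). The pooled SD of Casp1 within groups was 0.10, lower than in all but 1.75% of the genes tested.

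Casp4 encodes caspase-11, the mouse sensor of bacterial lipopolysaccharide in the cytosol. Control 1 to 5 read 1.62, 1.49, 1.44, 1.79 and 1.81. VCF read 1.70, 2.05 and 1.82, CCF 1.56, 1.65 and 1.68, and RCF 1.71, 2.00 and 1.83. CCF lay inside the control range, and both VCF and RCF reached above it with at least 1 array. The differences from control were 0.23 ± 0.13 for VCF (adjusted p = 0.634), 0.00 ± 0.13 for CCF (0.998) and 0.22 ± 0.13 for RCF (0.543).

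Gsdmd encodes gasdermin D, which forms the pore through which the cytokines leave the cell. Its brighter probe read 1.63, 1.54, 1.88, 1.94 and 1.79 in control 1 to 5. VCF read 1.44, 1.59 and 1.72, CCF 1.64, 1.38 and 1.66, and RCF 1.51, 1.6 and 1.46. Group means were ordered from control through VCF and CCF to RCF, within a narrow range and with overlap at each step. The differences of −0.17 ± 0.13, −0.19 ± 0.13 and −0.23 ± 0.13 had adjusted p of 0.75, 0.403 and 0.490. On the other, much dimmer probe VCF and CCF differed by 0.13 ± 0.21 and 0.39 ± 0.21 in the opposite direction, and the probes correlated at r = 0.180. RCF read −1.66, −2.24 and −2.60 on that dimmer probe, against −2.29, −1.90, −1.91, −1.58 and −1.98 in control 1 to 5. It was well above background on all 14 arrays.

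**Figure D2:**
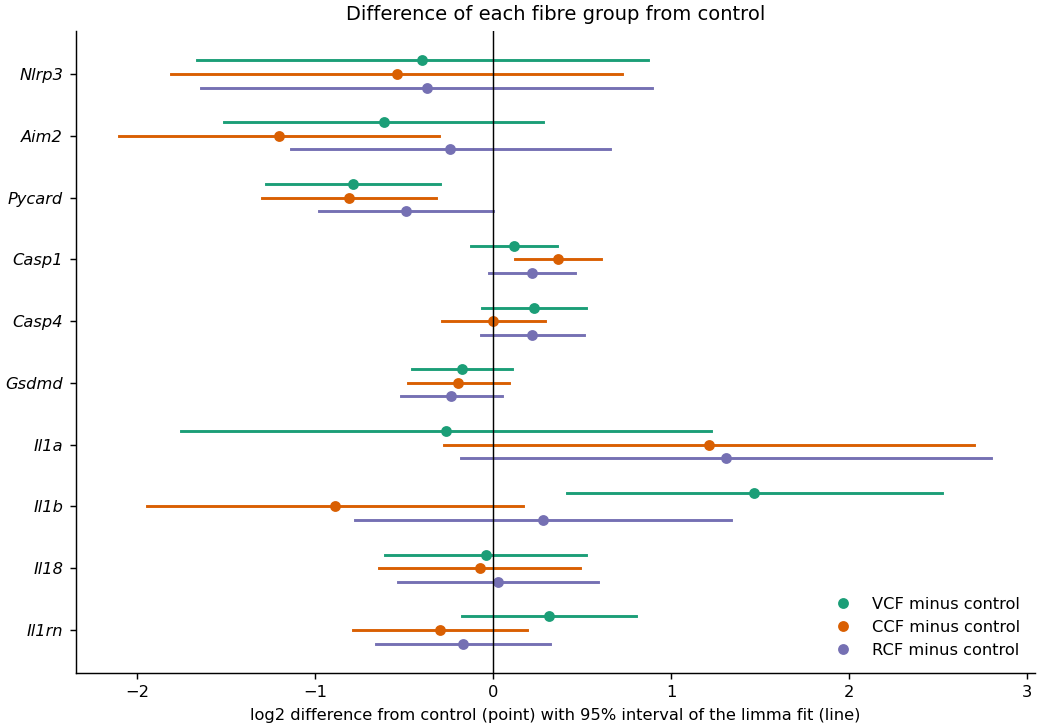
Difference of each fibre group from control for the 10 genes, in log2 units (points) with the 95% interval of the limma fit (lines, n = 3 against 5 arrays). The intervals of Pycard lie below 0 for all 3 fibres before adjustment, that of Il1b lies above 0 for VCF, and those of Nlrp3 and Il1a are the widest.

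Il1a encodes interleukin 1α, an alarm cytokine that needs no caspase-1. The probe was near the floor of the assay: it was well above background on CCF 1, RCF 1 and RCF 2 and on none of the control or VCF arrays. Those 3 arrays read −4.89, −3.65 and −5.46. The group means were −6.65 in control, −6.92 in VCF, −5.44 in CCF and −5.34 in RCF, and no bound on a fold could be given because the background level of the control arrays, −5.31, exceeded the CCF and RCF means. Fitted as they stand, CCF and RCF differed from control by 1.21 ± 0.68 (adjusted p = 0.312) and 1.31 ± 0.68 (adjusted p = 0.456). The probe passed the filter, which asks for 3 arrays well above background, only through these CCF and RCF arrays. That choice favours higher CCF and RCF means, so no conclusion is drawn from them.

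Il1b encodes the precursor of interleukin 1β, the main inflammatory product of the pathway. It read 0.82, 1.51, 1.32, 0.67 and 2.56 in control 1 to 5. VCF read 2.36, 2.89 and 3.28, CCF 0.77, −0.12 and 0.81, and RCF 2.12, 2.28 and 0.57. VCF was the highest group and CCF the lowest, with no overlap between them. Control 5, at 2.56, stood inside the VCF range, and the RCF arrays were split, with RCF 3 below all but the CCF 2 array.

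The VCF difference from control was 1.47 ± 0.48, a factor of 2.77 (unadjusted p = 0.0105, adjusted p = 0.313). CCF differed by −0.89 ± 0.48 (adjusted p = 0.295) and RCF by 0.28 ± 0.48 (adjusted p = 0.887). CCF differed from VCF by −2.36 ± 0.54, a factor of 5.12, with an unadjusted p of 0.00096 and an adjusted p of 0.0991 that missed the threshold. With slide as a random block the adjusted p was 0.0456, the lowest of a range up to 0.322 over the alternatives, where the difference ran from −2.60 to −2.05. The distance was close in size on both slides that held both fibres, −2.30 on slide 1 and −2.47 on slide 2. In the order of means, VCF (2.84 ± 0.46, SD, n = 3), RCF (1.66 ± 0.94, n = 3), control (1.38 ± 0.75, n = 5) and CCF (0.49 ± 0.53, n = 3), no neighbours differed beyond the threshold. RCF differed from VCF by −1.19 ± 0.54 (adjusted p = 0.549), with every RCF array below every VCF array.

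The other Il1b probe gave the same picture. It correlated with the brighter one at r = 0.971 across the 14 arrays, and its differences were 1.70 ± 0.55 for VCF, −0.68 ± 0.55 for CCF and −2.37 ± 0.61 for CCF against VCF (adjusted p = 0.137 over all probes). Of 12703 genes above background on all arrays, those most alike to Il1b across the 14 arrays were Clec4d (r = 0.951), a C-type lectin receptor of neutrophils and monocytes, Slc16a3 (r = 0.948), a lactate transporter, and Stfa2 (r = 0.945), a cystatin of neutrophils. Clec4d and Stfa2 are themselves on the list of neutrophil markers. The same search also gave high best matches for the other members, with r from 0.819 (Nlrp3) to 0.934 (Aim2).

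**Figure D3:**
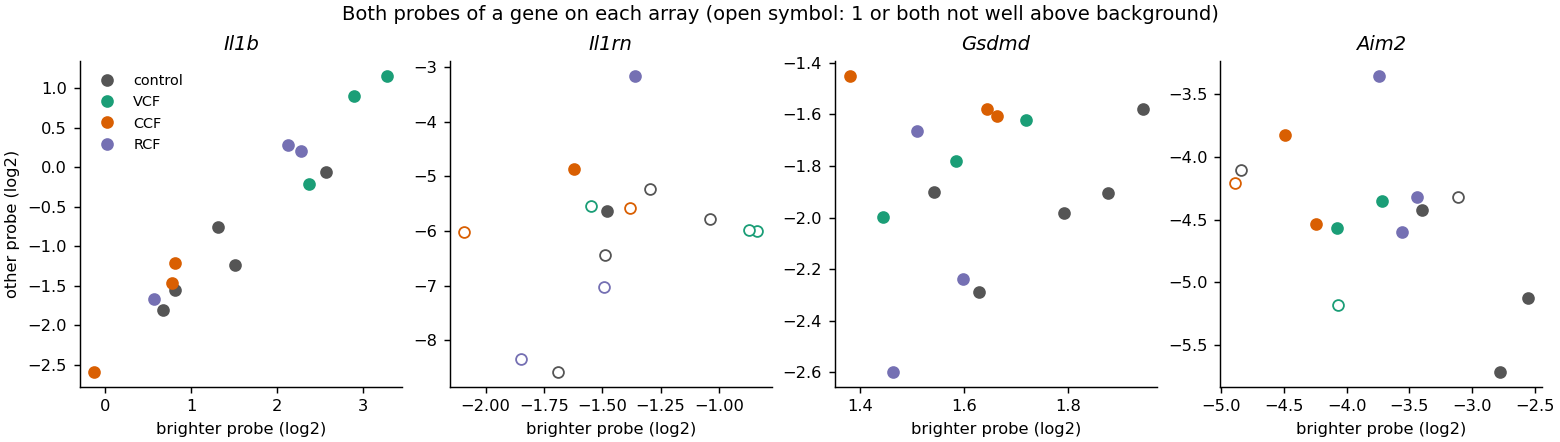
The brighter and the other probe of Il1b, Il1rn, Gsdmd and Aim2 on each array, as log2 signal minus the array's 75th percentile. Points are arrays coloured by group and are open where a probe was not well above background. The Il1b points follow a line (r = 0.971), while those of Gsdmd (0.180), Il1rn (0.309) and Aim2 (−0.508) do not.

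The summed level of the neutrophil markers, like Il1b, was highest in VCF and lowest in CCF. It ran from 7.53 to 7.99 in control, from 8.21 to 8.73 in VCF, from 6.94 to 7.33 in CCF and from 7.40 to 8.07 in RCF, so that VCF lay above and CCF below all control arrays. Within VCF the order was reversed: the sum read 8.73, 8.44 and 8.21 in VCF 1 to 3, while Il1b rose from 2.36 to 3.28. In CCF the array with the highest sum, CCF 2, had the lowest Il1b (−0.12). Control 5 was the highest control array in both, and RCF 3 the lowest RCF array in both. Of 16 markers, 15 were tested, since Ly6g has no probe with a symbol here. Among the 15, 1 rose in VCF (Stfa1, 2.69 ± 0.37, adjusted p = 0.0401), beside 0.0851% of all genes called in either direction. In CCF 5 fell (5.99% of all genes called), and 8 were lower in CCF than in VCF (0.222%). By sign alone 15 stood above control in VCF, while in CCF 11 stood below and 4 above. The list was chosen with earlier results of these data known. S100a8, a calcium-binding protein of the neutrophil cytosol, differed in CCF by −1.85 ± 0.36 from control (adjusted p = 0.0174) and by −2.86 ± 0.40 from VCF (adjusted p = 0.0170). Cxcr2, the chemokine receptor that guides neutrophils, differed in CCF by −3.89 ± 0.59 from VCF (adjusted p = 0.0230). Markers of other cells differed between the same groups. The summed level of 11 T and NK cell markers ran from 4.94 to 5.06 in control, 4.34 to 4.47 in VCF, 4.59 to 5.0 in CCF and 4.52 to 5.06 in RCF, and all 11 stood below control in VCF and higher in CCF than in VCF (0 and 1 past the threshold). That of 6 erythroid markers ran from 8.62 to 9.55, 7.42 to 8.45, 8.62 to 9.20 and 8.63 to 9.14, with a median difference of −1.47 in VCF and of 2.09 between CCF and VCF (0 past the threshold in both). The part of all these markers in the Il1b values was not tested.

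**Figure D4:**
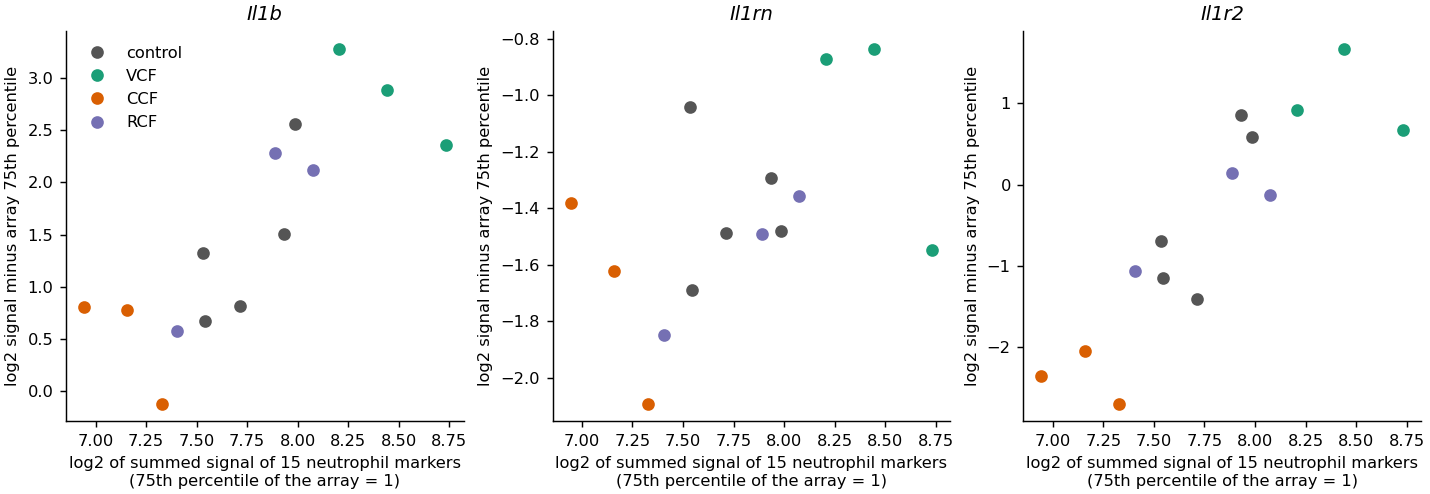
Level of Il1b, Il1rn and Il1r2 on each array against the log2 of the summed signal of 15 neutrophil markers (the array's 75th percentile set to 1), coloured by group. The 3 VCF arrays lie to the right (8.21 to 8.73) and the 3 CCF arrays to the left (6.94 to 7.33) in each panel. Il1b and Il1r2 are high at the right and low at the left, and Il1rn spreads more.

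Il18 encodes the precursor of interleukin 18, which airway epithelium holds in advance of any stimulus. Control 1 to 5 read 1.05, 2.14, 1.10, 1.24 and 1.23. VCF read 1.46, 1.39 and 1.08, CCF 0.76, 1.61 and 1.46, and RCF 1.36, 1.31 and 1.46. All groups overlap, with control 2 above every other array and CCF 1 below. The differences from control were −0.04 ± 0.26 for VCF, −0.07 ± 0.26 for CCF and 0.03 ± 0.26 for RCF, with adjusted p of 0.985, 0.905 and 0.985. The 95% intervals, from −0.61 to 0.52 for VCF, −0.64 to 0.49 for CCF and −0.54 to 0.59 for RCF, bound how large a change these arrays leave room for.

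Il1rn encodes the antagonist that blocks the interleukin 1 receptor. Its brighter probe read −1.49, −1.29, −1.04, −1.69 and −1.48 in control 1 to 5. VCF read −1.55, −0.84 and −0.87, CCF −1.62, −2.09 and −1.38, and RCF −1.36, −1.49 and −1.85. VCF 2 and VCF 3 were the highest and CCF 2 the lowest of all arrays, and VCF 1 stood inside the control range. The differences from control were 0.31 ± 0.22 for VCF (adjusted p = 0.738), −0.30 ± 0.22 for CCF (0.465) and −0.17 ± 0.22 for RCF (0.837). CCF differed from VCF by −0.61 ± 0.25 (unadjusted p = 0.031, adjusted p = 0.306), in the direction of Il1b at a smaller size. The other probe was mostly not well above background and correlated with this one at r = 0.309.

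Among the 45 pairs of members, 19 had a positive and 26 a negative correlation over the 14 arrays. Il1b and Il1rn correlated at Pearson's r = 0.735 (permutation p = 0.00241, adjusted over 45 pairs 0.0542) and Spearman's rho = 0.732 (permutation p = 0.0041, adjusted 0.0925). Without the 2 arrays farthest from the Il1b median r was 0.525, within slide 1 (7 arrays) 0.841, and with group means removed 0.591. The other Il1b probe gave r = 0.780 with Il1rn, and the dim other Il1rn probe gave r = 0.294 with Il1b.

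Aim2 and Casp1 were the pair that passed after adjustment, with r = −0.787 (permutation p = 0.00098, adjusted 0.0441) and rho = −0.820 (permutation p = 0.0007, adjusted 0.0319). Without the 2 arrays farthest from the Aim2 median r was −0.690, within slide 1 −0.523, and with group means removed −0.750. The sign depended on the probe, since the other Aim2 probe gave r = 0.627 with Casp1 (permutation p = 0.0150). No direction for this pair can therefore be given.

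Around the 10 genes, 59 of 68 further genes of the pathway were tested, in 5 lists: 2 of 6 other ligands, 8 of 9 receptors and decoys, 11 of 11 adaptors and kinases, 24 of 26 other sensors and regulators, and 14 of 16 genes that interleukin 1 induces. In CCF against control 4 of the 59 rose and 2 fell, or 10.2% beside 5.99% of all genes. None passed in VCF or RCF. With limma at an unadjusted p under 0.05 they numbered 10 in VCF (16.9% beside 9.96% of all genes) and 7 in RCF (11.9% beside 12.9%). CCF gave 19 (32.2% beside 23.7%) and the mean of the fibres 13 (22% beside 19.5%). Between fibres CCF against VCF gave 18 (30.5% beside 13.8%), RCF against VCF 5 (8.47% beside 9.05%) and RCF against CCF 11 (18.6% beside 9.26%). Past the threshold for adjusted p, 1 rose and 1 fell in the mean of the fibres (3.39% beside 2.58% of all genes). Between fibres 1 was lower in CCF than in VCF (1.69% beside 0.222%), and 0 passed in RCF against VCF or against CCF. With no filter on dim probes 8 of these 9 calls were lost, the exception being Nfkbiz in CCF, with adjusted p of the lost calls from 0.0578 to 0.132.

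Of the other ligands, Il33, an alarm cytokine of alveolar epithelium, differed from control by 0.32 ± 0.17 in VCF, 0.27 ± 0.17 in CCF and 0.34 ± 0.17 in RCF (adjusted p = 0.575, 0.374 and 0.425). Il1f9, the gene of interleukin 36γ, differed by 1.05 ± 0.59 in VCF and −0.34 ± 0.59 in CCF (adjusted p = 0.612 and 0.795). Neither list member passed, and their groups overlapped.

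Il1r2, the decoy receptor that binds interleukin 1 without passing on a signal and is abundant on neutrophils, was the receptor that fell. It read −1.41, 0.86, −0.69, −1.14 and 0.58 in control 1 to 5. VCF read 0.67, 1.66 and 0.91, CCF −2.05, −2.69 and −2.35, and RCF −0.13, 0.14 and −1.06. CCF lay below every other array, and VCF 2 was the highest of all. CCF differed by −2.0 ± 0.52 from control (adjusted p = 0.0433) and by −3.45 ± 0.58 from VCF (adjusted p = 0.0390), while VCF differed from control by 1.44 ± 0.52 (adjusted p = 0.352).

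Both Il1r2 calls stood near the threshold. Leaving out control 3, 4 or 5, VCF 2 or 3, any CCF array, RCF 1 or RCF 2 ended the call against control (differences from −2.27 to −1.70 over all arrays left out in turn). Leaving out control 3 or 4, any VCF or CCF array, RCF 1 or RCF 2 ended the call against VCF (−3.65 to −3.15). Adjusted p ran from 0.0231 to 0.162 and from 0.0182 to 0.213 over the alternatives. Within slides CCF differed from VCF by −3.53 and −3.27, and from control by −2.09 and −1.66. The other Il1r2 probe gave −3.13 ± 0.77 against VCF (adjusted p = 0.122) and −0.87 ± 0.69 against control (adjusted p = 0.485). The neutrophil, T and NK cell and erythroid markers given beside Il1b also differed between these groups, and their part in Il1r2 was not tested.

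The signalling receptor Il1r1 differed by −0.01 ± 0.13 in VCF, 0.26 ± 0.13 in CCF and 0.13 ± 0.13 in RCF (adjusted p = 0.993, 0.238 and 0.748). Its partner chain Il1rap differed by 0.44 ± 0.17, 0.29 ± 0.17 and 0.44 ± 0.17 (adjusted p = 0.388, 0.333 and 0.281), and did not pass in any of these comparisons. Of the 11 adaptors and kinases behind the receptor 0 passed, and 5 had an unadjusted p under 0.05 in CCF with limma, beside 23.7% of all genes. Tab3, which couples the receptor complex to the kinase TAK1, came closest at 0.50 ± 0.14 (adjusted p = 0.0598), with every CCF array (−0.14 to 0.08) above every control array (−0.81 to −0.41). Irak3, a brake on the same complex, differed by 0.69 ± 0.21 in CCF (adjusted p = 0.0732). CCF and control arrays did not overlap for 16.3% of all genes, a share to set beside Il1r2, Tab3 and the pathway genes that follow.

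Among the other sensors and regulators P2rx7 rose in CCF by 0.69 ± 0.14 (adjusted p = 0.0194). It encodes the ATP-gated channel whose potassium efflux triggers NLRP3. Its brightest probe read 0.76, 0.85, 0.98, 0.70 and 0.67 in control 1 to 5, against 1.61, 1.45 and 1.39 in CCF. CCF thus stood above all controls on this probe, but the other probes of P2rx7 gave 0.00 ± 0.25 and 0.02 ± 0.37, and the mean of the 3 probes 0.24 (adjusted p = 0.492, the highest of a range from 0.00799). The call was also lost without control 4, CCF 1 or CCF 2 (0.67, 0.63 and 0.71).

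Naip6, a member of the NAIP family of sensors that recognise bacterial flagellin and related proteins, rose in CCF by 0.80 ± 0.19 (adjusted p = 0.0327). It read −2.27, −2.33, −1.95, −2.25 and −2.14 in control 1 to 5, against −1.74, −1.26 and −1.16 in CCF. The CCF arrays stood above all controls, and the call was lost without control 1, 4 or 5, CCF 2 or 3 or RCF 2, with differences from 0.69 to 0.98 over all arrays left out. It was also lost with slide as a fixed block (0.71, adjusted p = 0.0594), and adjusted p ran from 0.0157 to 0.185 over the alternatives.

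Panx1, the channel that releases ATP, fell in the mean of the fibres by 0.41 ± 0.09, a factor of 1.32 (adjusted p = 0.0356). It read 1.42, 1.59, 1.6, 1.44 and 1.6 in control 1 to 5. VCF read 1.17, 1.06 and 1.17, CCF 1.22, 0.96 and 1.27, and RCF 1.04, 1.20 and 1.02. All 9 fibre arrays lay below all 5 controls, as in 0.562% of all genes in that direction. Each fibre missed the threshold taken alone, with −0.39 ± 0.11 in VCF, −0.38 ± 0.11 in CCF and −0.44 ± 0.11 in RCF (adjusted p = 0.233, 0.0657 and 0.131). Within slides the 6 differences ran from −0.46 to −0.32. The call for the mean held without control 2, VCF 1, CCF 1 or CCF 3 and was lost without any other array, with sizes from −0.43 to −0.37 and adjusted p from 0.0144 to 0.252 over the alternatives.

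Gsdme, a gasdermin opened by caspase-3, differed in VCF by 1.16 ± 0.34 (adjusted p = 0.250), and Trpm2, a calcium channel of myeloid cells, differed by −1.76 ± 0.38 between CCF and VCF (adjusted p = 0.0904). Neither passed.

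Of the 14 genes that interleukin 1 induces, Nfkbiz and Icam1 rose and Nfkbia fell in CCF. Nfkbiz, the nuclear cofactor IκBζ, read −1.45, −1.10, −1.10, −1.35 and −1.0 in control 1 to 5. VCF read −0.84, −0.32 and −0.35, CCF −0.35, −0.32 and 0.16, and RCF −0.53, −0.64 and −0.87. All 9 fibre arrays lay above all controls, and 1.65% of all genes showed no overlap of these groups in either direction. CCF was higher by 1.03 ± 0.18 (adjusted p = 0.0133) and the mean of the fibres by 0.75 ± 0.14 (adjusted p = 0.0237), whereas VCF (0.70 ± 0.18, adjusted p = 0.181) and RCF (0.52 ± 0.18, adjusted p = 0.229) did not pass alone. The other Nfkbiz probe gave 0.63 ± 0.30 in CCF (adjusted p = 0.226). The CCF call held without each array in turn, and was lost on the mean of the probes (0.83, adjusted p = 0.0508) and in a fit of only the groups compared (adjusted p = 0.05004), with adjusted p from 0.00533 to 0.101 over the alternatives. The call for the mean of the fibres was lost without control 1 or control 4 (0.69 and 0.71) and on the mean of the probes (0.66, adjusted p = 0.0680), with adjusted p from 0.00961 to 0.182.

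Icam1, the adhesion molecule through which leukocytes bind endothelium, read −0.38, −0.32, −0.32, −0.58 and −0.72 in control 1 to 5, against 0.89, 0.63 and 0.54 in CCF. CCF was higher by 1.16 ± 0.24 (adjusted p = 0.0202). The call was lost without control 4 or any 1 CCF array, with differences from 1.05 to 1.23 over all arrays left out and adjusted p from 0.00857 to 0.128 over the alternatives. Nfkbia, the inhibitor that holds NF-kB in the cytosol, differed in CCF by −0.87 ± 0.18 (adjusted p = 0.0222). It read 5.26, 5.32, 5.74, 5.29 and 5.68 in control 1 to 5, against 4.62, 4.68 and 4.48 in CCF, below all controls. Leaving out any 1 CCF array ended this call too, at differences of −0.88, −0.91 and −0.81. So did quantile scaling (−0.62, adjusted p = 0.0791), normexp background (−0.66, 0.0577), a fit of only the groups compared (0.0575) and leaving out the 3 dim arrays (−0.91, 0.0520), with adjusted p from 0.00967 to 0.109 over the alternatives. In the same CCF arrays Il1b differed from control by −0.89 ± 0.48 (adjusted p = 0.295). Il1a, near the floor and past the filter only through CCF and RCF arrays, differed by 1.21 ± 0.68 (adjusted p = 0.312). The part of interleukin 1 in these calls was not tested. Ptgs2, the inducible cyclooxygenase, and Cxcl5, a neutrophil chemokine, read 1.18 ± 0.43 and 1.59 ± 0.55 above control in VCF (adjusted p = 0.354 and 0.329), the latter well above background on 5 arrays only.

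**Figure D5:**
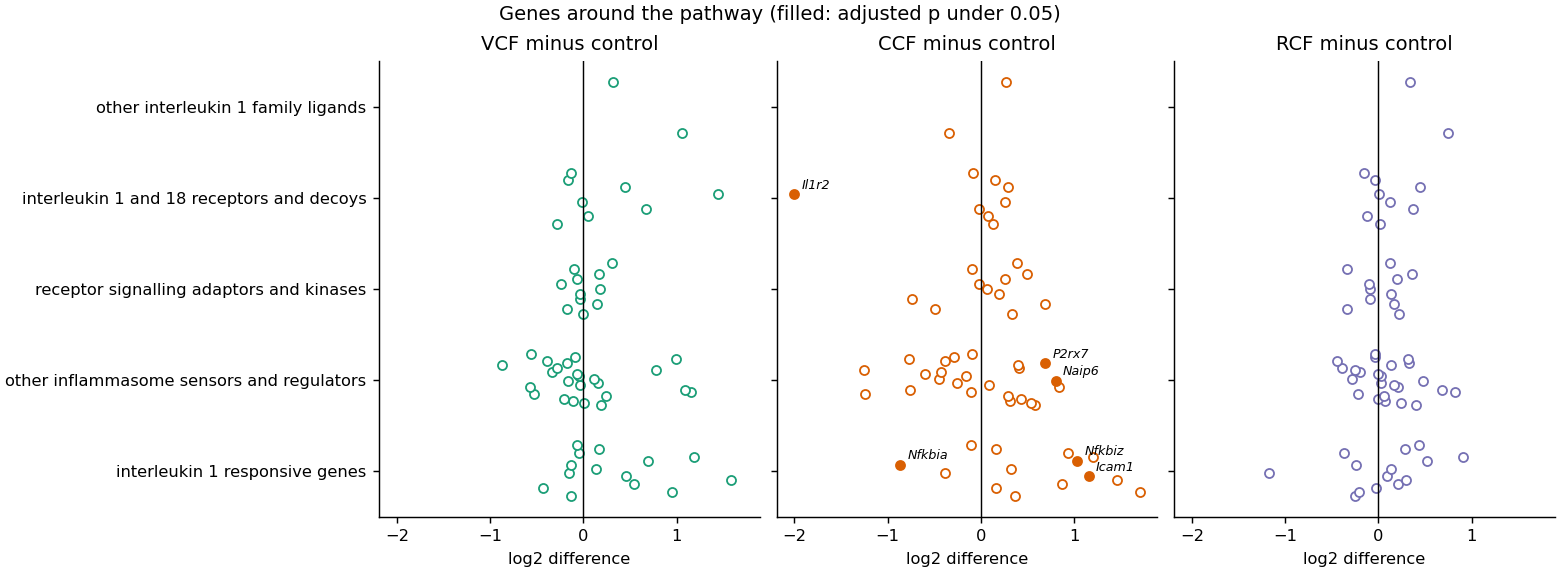
Difference of each fibre group from control for the 59 tested genes around the pathway, in log2 units, 1 point per gene, ordered by list. Filled and named points have an adjusted p under 0.05. All 6 filled points stand in the CCF panel, with Il1r2 (−2.0) and Nfkbia (−0.87) to the left of 0 and P2rx7, Naip6, Nfkbiz and Icam1 to the right.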

How the data were processed

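Members and gene lists were chosen with earlier results of these data known. Lung RNA was labelled with Cy3, per the labels' protocols (Quick Amp kit). The deposited intensity values are the processed signal of Feature Extraction 10.7.3.1 per the file headers, corrected for background and unscaled across arrays. The authors' deposited series table holds log2 values of 32177 probes, each column log2 of the processed signal minus 1 constant (at least 99.98% of values within 0.01). The medians of these columns, in the order of the array numbers, were for control −0.05, −0.03, −0.29, −0.50 and −0.49, for VCF 0.30, −0.30 and −0.37, for CCF −0.36, 0.16 and −0.34, for RCF −0.17, −0.52 and −0.49. The columns held from 26072 (VCF 1) to 32157 values (RCF 2), the other cells being empty. The match gives scale and direction and shows no centring of genes. What set the constants stays unknown.

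Each array's log2 processed signal was set to its 75th percentile over non-control spots. Outlier spots were left out, and spots of 1 probe averaged. Symbols came from RefSeq accessions (32994 of 56605 probes had 1). Probes well above background on at least 3 arrays were kept, and the probe with the highest mean stood for a gene. Limma 3.58.1 in R 4.3.3, run beside version 1.17.8 of data.table, modelled the 14 arrays by their 4 groups without covariates, and the script was tested on simulated data. For simulated VCF against control it called 35 of 100 changes of 1 log2 unit and 65 of 100 of 2 units, with 5 false calls. Changes of these sizes can thus miss the threshold. The number of arrays limits the precision.

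Genes were named by rule: all members, of each pathway list those past the threshold and otherwise at most 2 per comparison by the smallest p, the 3 genes most alike to Il1b, and at most 3 neutrophil markers. Il1r1 was added after its values were seen. Alternatives changed the scaling, background correction (normexp with an offset of 50 on the median signal, as the mean signal was not used here), values, filters, probe choice, slide and replicate blocks, and the arrays kept. Fits of each probe alone and within-slide differences were chosen after seeing the data.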

Additional observations from a re-analysis of the deposited data

Results flagged for a closer look

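Il18 in control 2, at 2.14, lay far from the other control arrays, of which the nearest read 1.23 and the lowest 1.05. The gap divided by the range of the 5 arrays was 0.831, above Dixon's critical value of 0.71. Of 17 genes screened in the controls 1 was marked, and chance marks about 1 group in 20.

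Il1r2 differed between fibres by −3.45 (CCF minus VCF, adjusted p = 0.0390 in limma), with CCF below and VCF above the control mean on all 3 arrays of each. The part of the neutrophil and other cell type markers in this difference was not tested.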

How the results depend on the processing

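The count of members past the threshold was 0 and stayed 0 for VCF, RCF, RCF against VCF and RCF against CCF under all 26 alternatives. For CCF it was 2 on the authors' deposited values (Aim2 and Pycard), 2 among probes above background on all 14 arrays (Casp1 and Pycard), 1 with slide as a random block (Pycard), and 0 to 2 with 1 array left out. The 2 were Aim2 and Casp1 without control 2, and Pycard passed without CCF 3. For the mean of the fibres it was 2 on the authors' values (Aim2 and Pycard), 1 among probes above background on all arrays, 1 with slide as a fixed and 1 as a random block (Pycard in each), and 0 to 1 with 1 array left out (Aim2 without control 2, Pycard without CCF 3). For CCF against VCF it was 1 with slide as a random block (Il1b). The causes were not tested. The other Aim2 probe differed from control in the opposite direction in CCF, as given above. The authors' table has empty cells, so fits on it can rest on fewer arrays. Of 1792 refitted differences of members 16 passed and 89 turned sign, none of them a sign turn of a called value. Leaving probes unfiltered moved the median of all genes by up to 0.175 (RCF against VCF).

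With the replicate number as a block, over arrays numbered 1 to 3, all 9 calls of pathway genes were lost (adjusted p from 0.0855 to 0.252), 0 members passed, and the calls over all genes fell to 2 for CCF and 0 for the mean of the fibres. The numbers were to pair the arrays only if every same-numbered pair of arrays had residuals correlated over 0.1. This held for 12 of 18 such pairs (median 0.181), against 11 of 54 pairs with other numbers (median −0.0352). On the same slide it held for 9 of 12 (median 0.181) and 8 of 13 (median 0.221), and 5 of 12 arrays correlated best with an array of their own number. Over all genes the calls ranged from 0 to 96 for VCF (26 as reported), 2 to 2952 for CCF (1832), 0 to 468 for RCF (47), 0 to 2238 for the mean (790), 0 to 655 for CCF against VCF (68), 0 to 26 for RCF against VCF (3) and 0 to 25 for RCF against CCF (1). Weak signal over background limits Nlrp3, Il1a, Aim2 and the dimmer probes of Il1rn.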
